A study of Mus musculus with 24 samples.

Results

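The genes described here are 34 genes of the unfolded protein response and of the ATF4 stress response. They were chosen by name, as the rows of a table of 43629 gene identifiers whose gene symbol was on a fixed list, and all 34 were found and tested. They fall into 2 arms. The ER arm holds 20 genes of the endoplasmic reticulum (ER): 13 that help proteins fold, 4 that send misfolded proteins to degradation, and 3 that sense stress or carry its signal (Ern1, Atf6 and Xbp1). The ATF4 arm holds 14 genes: 6 stress regulators and effectors, and 8 genes of amino acid and one-carbon metabolism.

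The RNA came from BMDMs (macrophages differentiated in the dish from mouse bone marrow) of C57BL/6 mice at postnatal week 10. The cells were wild type (WT) or labelled CITED2-KO (KO), CITED2 being a nuclear protein that competes with transcription factors for the coactivators CBP and p300. Cells of both genotypes received no stimulus (control) or LPS (bacterial lipopolysaccharide, which activates macrophages through a Toll-like receptor), IFNg (interferon gamma) or IL4 (interleukin 4, which drives alternative activation), with 3 libraries in each of 8 groups. Dose, duration, the making of the knockout and the animal or culture behind each replicate are not given in the sources used here. The p-values therefore cover the spread among these libraries, which may be technical.

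Cited2 itself was 2207 ± 80.5 in WT and 27.9 ± 10.4 in KO control libraries (mean ± SD of the normalised read count, n = 3, as for all such values below), and 3593 against 48.7 with LPS, 2438 against 13.6 with IFNg and 1148 against 11.7 with IL4. Libraries held 1478507 to 73409343 reads, with a median of 29551522. A single read was worth 23.6 in the shallowest library, KO LPS replicate 1, and at most 4.08 in the others. The 3 shallowest, KO LPS replicate 1, WT control replicate 3 and WT LPS replicate 1, had 1478507, 7818719 and 7921412 reads. Of the macrophage markers, Csf1r was at least 29508, Adgre1 at least 30050.2 and Cd68 at least 35098 in every library. Other macrophage markers differed between genotypes, some in opposite directions. Lyz2 averaged 654 in WT and 341 in KO control, 2043 and 1158 with LPS, 618 and 379 with IFNg and 1226 and 941 with IL4. Mertk averaged 2090.0 in WT and 1891 in KO control, 1176 and 5408 with LPS, 3837 and 5299 with IFNg and 1660.5 and 1878 with IL4. Fcgr1 averaged 2691 in WT and 1761 in KO control, 19847 and 14619 with LPS, 11267 and 7993 with IFNg and 1234 and 2376 with IL4. The part of these differences in the results was not tested. In bulk RNA, fewer cells of a type and less RNA per cell cannot be told apart.

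The unfolded protein response is the cell's answer to unfolded protein in the ER. Of its 3 sensors, IRE1 (encoded by Ern1) splices Xbp1 mRNA, ATF6 is cut to release a transcription factor, and PERK phosphorylates the initiation factor eIF2; spliced XBP1 and cut ATF6 raise chaperones and degradation factors. Phosphorylated eIF2 slows translation in general but favours translation of ATF4 mRNA, and other kinases that sense amino acid shortage or double-stranded RNA reach ATF4 the same way, so that the ATF4 arm can move without ER stress. Gene-level read counts see neither Xbp1 splicing nor eIF2 phosphorylation.

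Both arms are tied to short promoter sequences, which are shown here because the arms differ in which of them they hold. RefSeq promoters (build GRCm38.p6, 250 bases before to 50 after each gene's start) were at hand for 31 of the 34 members, the exceptions being Manf, Atf6 and Hyou1. On both strands 4 motifs were searched: the ER stress element (CCAAT, 9 bases of any kind, then CCACG), a second ER stress element (ATTGG, 1 base, then CCACG), the unfolded protein response element TGACGTGG and the ATF4 composite site TGATGNAAN, where N is any base. No matches of different motifs overlapped. The ER stress element was in 8 of 17 ER arm promoters (Hspa5, Hsp90b1, Dnajc3, Pdia6, Calr, Canx, Creld2 and Syvn1) and in 0 of 14 ATF4 arm promoters. It was in 37 of the 27025 genes whose promoters were searched, or 0.14%. These 27025, meant by all promoters below, leave out a chromosome that holds no member and promoters not 300 bases long. The second element was in Herpud1 and in 0.04% of all promoters, and TGACGTGG was in no member and 0.71% of all. The ATF4 composite site was in 5 of 14 ATF4 arm promoters (Trib3, Chac1, Atf3, Asns and Pck2), in 1 of 17 ER arm promoters (Herpud1) and in 4.5% of all. A match is a description of letters, not a measured binding site. The stretches below, 5′ to 3′ on the gene's strand, have the fixed letters of each match in capitals. The Hspa5 and Asns matches overlap an exon annotated in GENCODE M21, so these stretches are short.
Hspa5 (chr2:34772020-34772048, plus strand): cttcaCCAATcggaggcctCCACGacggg
Hsp90b1 (chr10:86705510-86705686, minus strand): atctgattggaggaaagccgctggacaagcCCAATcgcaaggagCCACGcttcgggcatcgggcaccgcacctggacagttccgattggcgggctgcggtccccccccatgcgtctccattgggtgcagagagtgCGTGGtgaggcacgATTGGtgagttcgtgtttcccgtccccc
Pdia6 (chr12:17266461-17266539, plus strand): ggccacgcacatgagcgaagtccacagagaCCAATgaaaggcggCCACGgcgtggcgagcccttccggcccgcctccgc
Creld2 (chr15:88819490-88819568, plus strand): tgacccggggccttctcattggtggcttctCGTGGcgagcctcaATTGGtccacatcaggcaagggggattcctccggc
Herpud1 (chr8:94386286-94386417, plus strand): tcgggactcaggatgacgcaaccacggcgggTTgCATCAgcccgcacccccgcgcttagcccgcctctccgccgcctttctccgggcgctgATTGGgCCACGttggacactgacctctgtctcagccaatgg
Asns (chr6:7693214-7693242, minus strand): cccagccacaTGATGaAActtcccgcacg
Chac1 (chr2:119351018-119351086, plus strand): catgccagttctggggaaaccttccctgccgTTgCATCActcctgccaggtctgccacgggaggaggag
Atf3 (chr1:191183406-191183474, minus strand): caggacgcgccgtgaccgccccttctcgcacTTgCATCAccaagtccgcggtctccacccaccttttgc
Hsp90b1 shows 2 matches of the ER stress element, one on each strand, and Herpud1 shows one match from each arm's motifs. The matches of Creld2, Chac1 and Atf3, the second of Hsp90b1 and the first of Herpud1 are on the opposite strand, so that their letters read as the reverse complement.

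**Figure D1:**
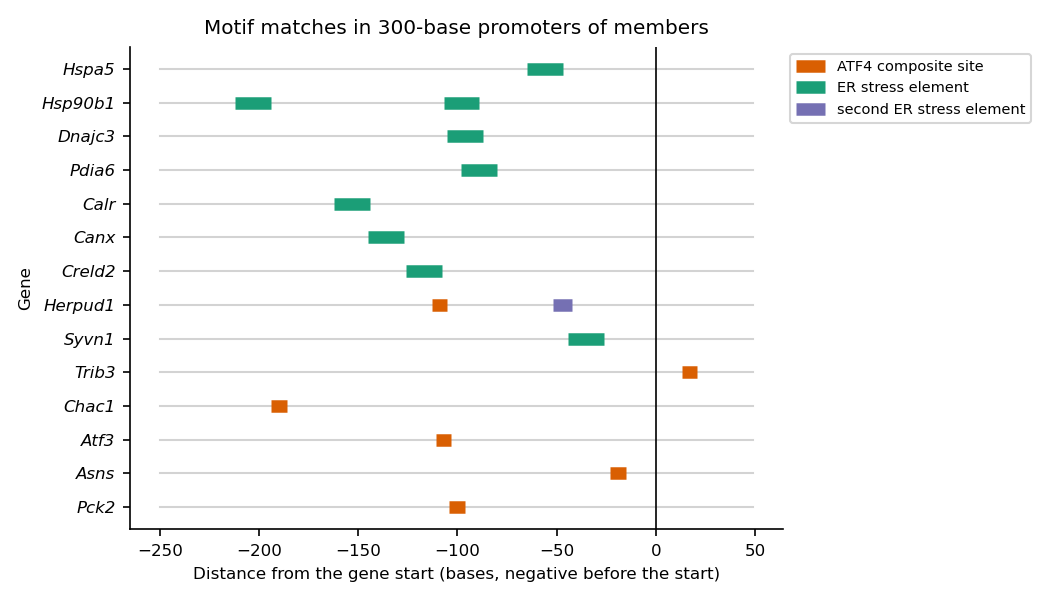
Position of each motif match in the 300-base promoters of the 14 members that hold one, as distance in bases from the gene's start. ER stress elements (green) lie in ER arm genes and ATF4 composite sites (orange) in 5 ATF4 arm genes and Herpud1.

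Levels between genes were compared per kilobase of merged exons. In WT control cells the most abundant members on that scale were Calr, a calcium-binding lectin chaperone, at 6739 per kilobase, the transcription factor Atf3 at 4511, and the chaperones Hsp90b1 (GRP94) at 4139 and Hspa5 (BiP, the main ER Hsp70) at 4134. The least abundant were Chac1, a glutathione-degrading enzyme, at 3.41 per kilobase, and Phgdh, the entry enzyme of serine synthesis, at 3.58. The ratio of the highest to the lowest group mean ran from 1.29 (Canx) to 7.30 (Pdia4) in the ER arm, and from 1.69 (Shmt2) to 27.0 (Asns) in the ATF4 arm among genes other than Chac1, which was at or near 0 in control cells.

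**Figure D2:**
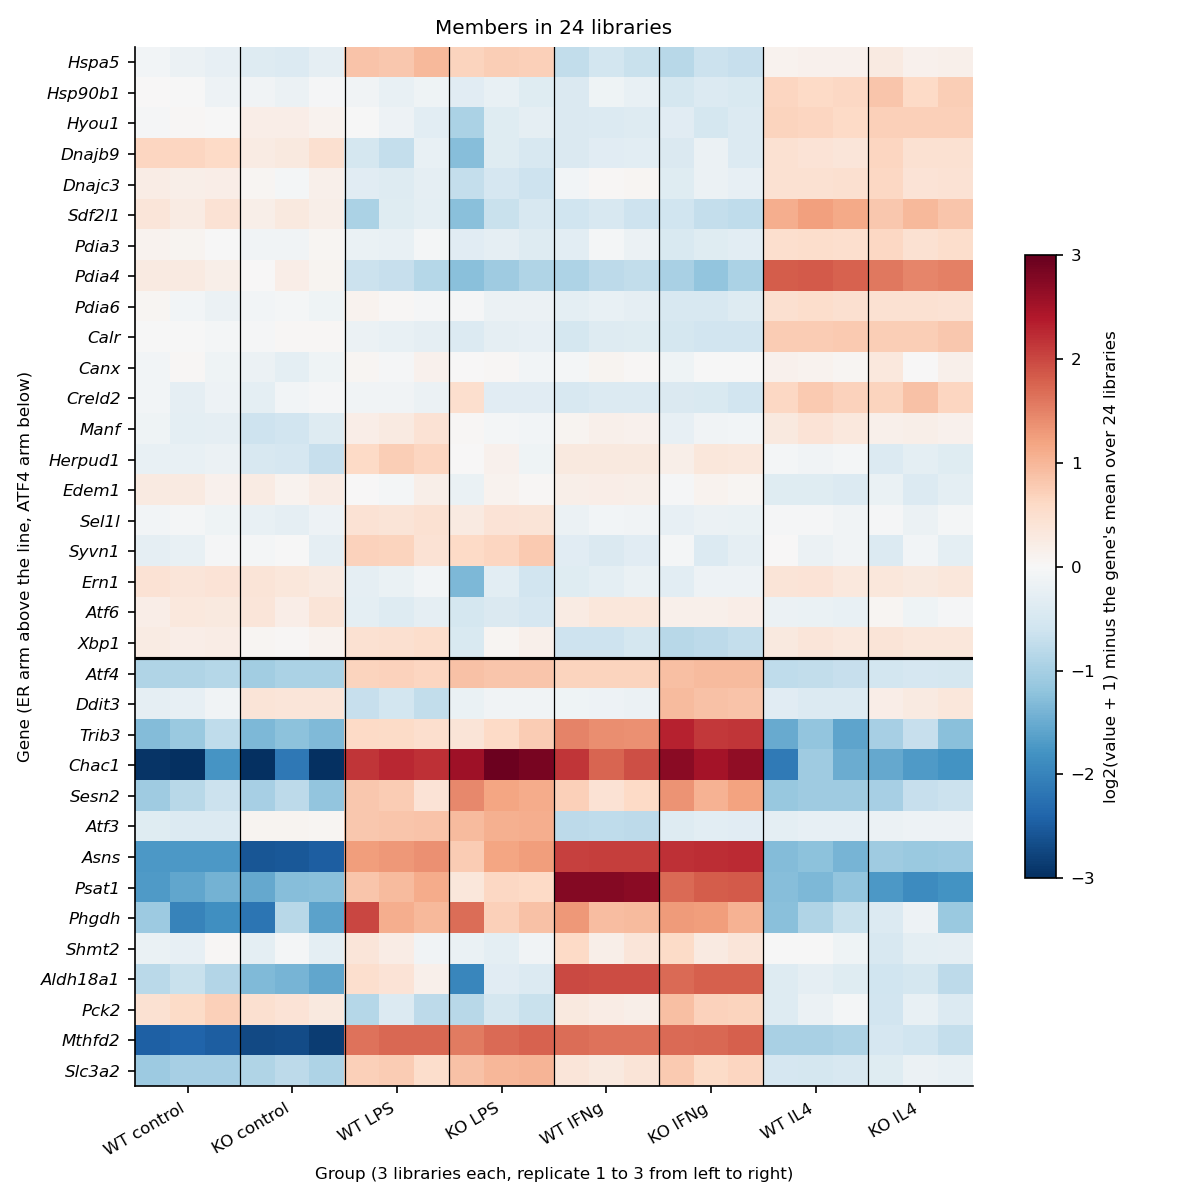
Each member (rows) in each of the 24 libraries (columns) as log2(value + 1) minus the gene's own mean, with the ER arm above the line. ATF4 arm genes such as Mthfd2, Asns and Psat1 are low in control and IL4 libraries and high in LPS and IFNg libraries, while Pdia4 is highest with IL4.

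IL4 raised the folding genes of the ER arm together. In WT cells 11 of the 13 folding genes were higher with IL4 than in control and none was lower, against 10.6% of all 18637 genes tested called higher and 9.56% lower (limma, adjusted p below 0.05). Over the whole ER arm 11 were higher and 2 lower. These counts were the same with medians or totals set equal. In KO cells 12 of 13 folding genes and 14 of the 20 ER arm genes were higher, and 0 and 2 were lower, where 12.6% of all genes were higher and 10.5% lower. Of all 34 members 21 were called with IL4 in WT (20.1% of all genes) and 25 in KO (23.2%). IL4 and control libraries did not overlap for 17 ER arm and 9 ATF4 arm genes in WT, and for 16 and 10 in KO, where they did not overlap for 40.2% of all genes in each genotype. The median log2 difference of the folding genes was 0.58 in WT and 0.59 in KO cells, and that of all genes was 0 in both.

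Pdia4, a protein disulfide isomerase that forms and rearranges disulfide bonds, rose most. It was 2092, 2092 and 1964 in the WT control libraries and 6084, 6214 and 5941 with IL4, a log2 difference of 1.57 ± 0.08 (SE; limma adjusted p = 7.6e-14). In KO cells it was 1759, 1985 and 1829 in control and 5235, 4835 and 4924 with IL4, a log2 difference of 1.43 ± 0.08. The IL4 and control libraries did not overlap in either genotype. Calr was 19583, 19645 and 18995 in WT control libraries and 33551, 33829 and 34230.1 with IL4 (log2 difference 0.80 ± 0.05), and 19988 against 33599 on average in KO. Pdia6, another disulfide isomerase, was 3704, 3388 and 3178 against 5018, 5175 and 4949 in WT (log2 difference 0.56 ± 0.05). Hsp90b1, which folds Toll-like receptors and integrins, was 15858, 15260.5 and 16822 in KO control and 30397, 25836 and 28565 in KO IL4 libraries, a log2 difference of 0.82 ± 0.07. For these genes every IL4 library was above every control library of its genotype.

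Hspa5 rose less: 18500.5, 17348 and 16596 in WT control and 21201, 21599 and 21272 in WT IL4 libraries, a log2 difference of 0.29 ± 0.06. In KO cells it was 14947, 14819 and 16238 in control and 23703, 21377 and 21741 with IL4, a log2 difference of 0.54 ± 0.06. The other folding genes called higher in WT were Creld2 (0.87), Sdf2l1 (0.81), Hyou1 (0.64), Manf (0.58), Pdia3 (0.45), Hsp90b1 (0.66) and Dnajc3 (0.26), all as log2 differences. Canx and the BiP co-chaperone Dnajb9 were not called in WT (log2 differences 0.15 and -0.21).

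The degradation and sensor genes did not share this pattern. Edem1, a lectin that extracts misfolded glycoproteins, fell with IL4 in WT (log2 difference -0.59 ± 0.07) and KO (-0.49 ± 0.07). Atf6 also fell, from 3868, 4174 and 4103 to 2967, 2918 and 2888 in WT libraries (log2 difference -0.47 ± 0.06). Xbp1 was 3267, 3149.7 and 3219 in WT control and 3338, 3504 and 3408 in WT IL4 libraries, which was not called (adjusted p = 0.63), and in KO it was 2867, 2794 and 2959.7 in control and 3575, 3444 and 3469 with IL4, where it was called higher (log2 difference 0.28 ± 0.09, adjusted p = 0.024). The 8 genes with an ER stress element in their promoter had a median log2 difference with IL4 in WT of 0.43, with 6 called higher, and the 9 ER arm genes whose promoter lacks this element, among them Herpud1 with the second element, had a median of 0.09, with 3 higher and 1 lower. All of the 8 except Syvn1 are folding genes, while the 9 include the degradation and sensor genes Herpud1, Edem1, Sel1l, Ern1 and Xbp1. The folding genes among the 9 are Pdia4, Sdf2l1 and Pdia3, which were called higher, and Dnajb9, which was not. The contrast by element was not separated from that by subgroup and was not tested.

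**Figure D3:**
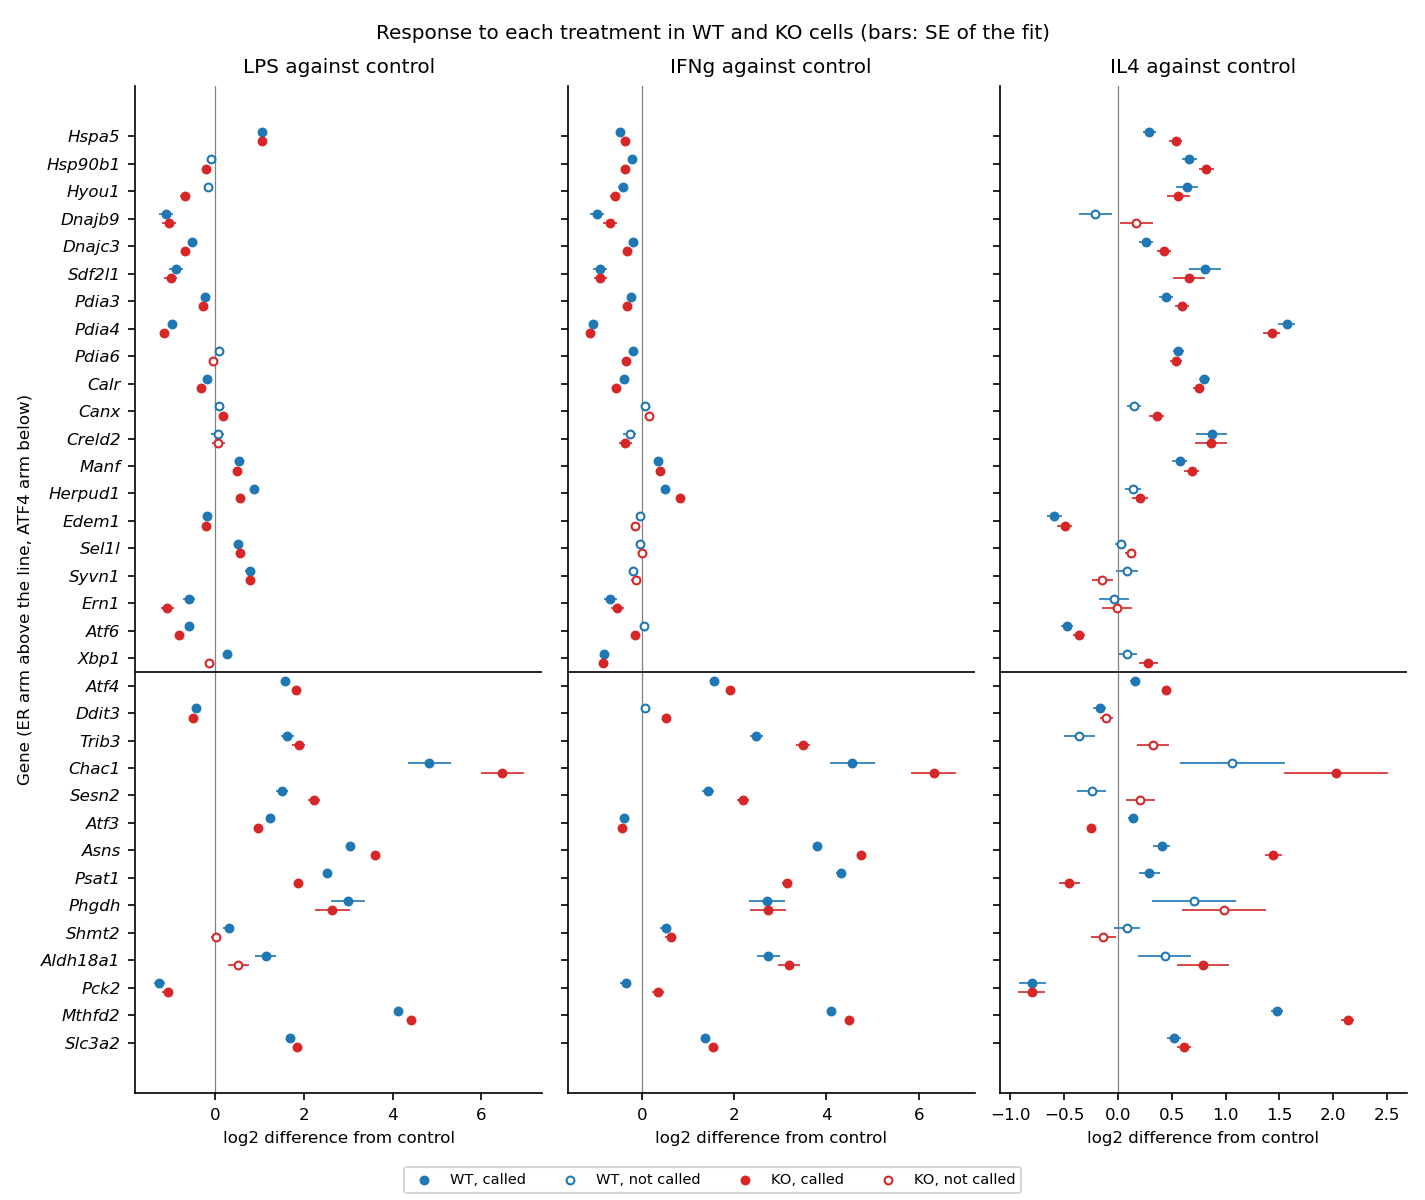
log2 difference of each treatment from control for every member, with the SE of the fit, in WT (blue) and KO (red); filled points were called at an adjusted p below 0.05. All folding genes except Dnajb9 in WT lie right of 0 with IL4, and most of the ATF4 arm lies right of 0 with LPS and IFNg. The panels have different horizontal scales.

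With LPS the ER arm split. In WT cells 6 of its 20 genes were higher and 9 lower, where 25.5% of all genes were higher and 27.8% lower, and in KO cells 6 were higher and 11 lower, against 24.5% and 32.5%. Of all 34 members 29 were called in each genotype, beside 53.3% of all genes in WT and 57.0% in KO, and LPS and control libraries did not overlap for 27 members in WT and 28 in KO, beside 57.6% and 55.6% of all genes. The split of the ER arm into higher and lower genes rested on how the libraries were scaled. The deposited values summed to 31791400 or more in each WT LPS library and to 19182600 or less in each WT control library. Setting the libraries' medians equal moved the median of all genes with LPS in WT from -0.06 to 0.36 and gave 13 ER arm genes higher and 3 lower, while setting their totals equal moved it to -0.64 and gave 1 higher and 17 lower. TMM scaling gave 6 and 9.

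Hspa5 was higher with LPS under every scaling tried. It was 35224, 34365 and 38581 in WT LPS libraries against the 18500.5, 17348 and 16596 of control, a log2 difference of 1.04 ± 0.06 (adjusted p = 1.7e-13), and 31138, 32547 and 32298 in KO LPS libraries, a log2 difference of 1.06 ± 0.06. Pdia4 was lower under every scaling, at 1113, 1071 and 965 in WT (log2 difference -0.97 ± 0.08) and 732, 835 and 930.0 in KO (-1.16 ± 0.08). No LPS library overlapped the control libraries for either gene, and they moved in opposite directions.

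Of the degradation genes, Herpud1, an ER membrane protein that recruits the ubiquitin machinery, was 562, 563 and 584 in WT control and 999, 1105 and 1026 in WT LPS libraries. The log2 difference was 0.87 ± 0.07 in WT and 0.56 ± 0.07 in KO, but with totals set equal it was not called in WT and turned negative in KO (-0.30). Sel1l and Syvn1, partners within the central ubiquitin ligase complex of ER-associated degradation, were higher by 0.52 and 0.78 in WT on the log2 scale. With equal totals Sel1l turned negative in both genotypes and Syvn1 in KO. Atf6 was 2339, 2475 and 2373 in KO LPS against 4323, 3883 and 4396 in KO control libraries (log2 difference -0.81 ± 0.06), and Ern1 was also lower (log2 difference -0.59 in WT and -1.08 in KO). Xbp1 was 3746, 3855 and 3934 in WT LPS libraries, a log2 difference of 0.26 ± 0.09 from control, which turned to -0.51 with equal totals, and 2008, 2859 and 3059 in KO LPS libraries, which was not called.

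With IFNg most of the ER arm was lower at the deposited scale. In WT cells 2 of 20 were higher and 12 lower, against 22.5% and 22.6% of all genes, and in KO cells 2 were higher and 14 lower, against 22.3% and 23.7%. Of all 34 members 27 were called in WT (45.1% of all genes) and 30 in KO (46.0%), and IFNg and control libraries did not overlap for 28 members in WT and 31 in KO (58.2% and 55.4% of all genes). With medians set equal, which moved the median of all genes in WT from 0 to 0.32, the WT split became 6 higher and 4 lower, and with totals set equal (median -0.35) 0 higher and 18 lower. Pdia4 was 917, 1009.7 and 1042 in WT IFNg libraries (log2 difference -1.05 ± 0.08) and 879, 766 and 897 in KO (-1.13 ± 0.08). Xbp1 was 1782, 1776 and 1901 in WT (log2 difference -0.82 ± 0.09) and 1532, 1585 and 1678 in KO (-0.85 ± 0.09). IFNg libraries lay below every control library of their genotype for both genes, and in WT both stayed called under every scaling. Hspa5 was 11775, 13299 and 12359 in WT IFNg libraries, a log2 difference of -0.49 ± 0.06 that was not called with medians set equal, and 11058, 12539 and 12212 in KO (-0.36 ± 0.06). Calr in KO was 13893, 13256 and 13363 (log2 difference -0.57 ± 0.05). Herpud1 and Manf, an ER-resident secreted survival factor, were the 2 higher genes in both genotypes: Herpud1 was 740.4, 830.4 and 818 in KO IFNg against 476, 462 and 406 in KO control libraries (log2 difference 0.83 ± 0.07), and Manf differed by 0.35 ± 0.07 in WT, which turned to -0.09 with equal totals. Hspa5 therefore was higher with LPS and lower with IFNg, while Pdia4 was lower with both.

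The ATF4 arm rose with LPS and IFNg in both genotypes. With LPS 12 of its 14 genes were higher and 2 lower in WT, and 10 higher and 2 lower in KO. With IFNg 11 were higher and 2 lower in WT, and 13 higher and 1 lower in KO. The shares of all genes called higher were the 25.5% and 24.5% (LPS) and 22.5% and 22.3% (IFNg) given above. The median log2 difference was 1.59 (LPS, WT), 1.85 (LPS, KO), 2.02 (IFNg, WT) and 2.46 (IFNg, KO). With equal totals 10 genes were higher in each of the 4 comparisons and 3, 3, 3 and 1 lower in the order LPS in WT, LPS in KO, IFNg in WT and IFNg in KO. With equal medians the IFNg split in WT was 12 higher and 0 lower.

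Among the regulators, Atf4 was 3128, 3135 and 3229 in WT control, 9368, 9516 and 9214 in WT LPS and 9231, 9349.8 and 9332 in WT IFNg libraries. Its log2 difference was 1.57 ± 0.04 with LPS and 1.56 ± 0.04 with IFNg in WT, and 1.82 ± 0.04 and 1.91 ± 0.04 in KO. The control libraries lay far below both treatments. Trib3, a pseudokinase target of ATF4 and CHOP, averaged 104 in WT control, 319 with LPS and 578 with IFNg, and Sesn2, a leucine sensor that restrains mTORC1, averaged 190.2, 542 and 510.3. Chac1 rested on 0 to 7 reads in each control library and reached 163, 177 and 168 in WT LPS and 161, 123 and 140.4 in WT IFNg libraries.

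Ddit3 (CHOP), a transcription factor of prolonged stress, did not follow Atf4. It was 763, 771 and 850.0 in WT control and 571, 629 and 555 in WT LPS libraries, a log2 difference of -0.44 ± 0.06, and 838, 832 and 818 with IFNg, which was not called. In KO cells it was 1206, 1189 and 1182 in control, 803, 858 and 851 with LPS (log2 difference -0.51 ± 0.06) and 1777, 1699 and 1674 with IFNg (0.53 ± 0.06). Atf3, an immediate stress factor that dampens Toll-like receptor targets, was higher with LPS (1.24 ± 0.04 in WT) and lower with IFNg (-0.38 ± 0.04). At the deposited scale Ddit3 was therefore, unlike Atf4, lower with LPS in both genotypes, and Atf3 was lower with IFNg. With medians set equal, 1 ATF4 arm gene was called lower with LPS in each genotype. None was called lower with IFNg, so Atf3 was then not called lower. That setting moved the median of all genes with LPS in WT from -0.06 to 0.36, about as far as the Ddit3 difference.

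Among the metabolic genes, Mthfd2, a mitochondrial folate enzyme, had the largest LPS differences of the 8. It was 278, 286 and 274 in WT control, 4708, 5008 and 4997 in WT LPS and 4846, 4728 and 4728 in WT IFNg libraries, log2 differences of 4.13 ± 0.06 and 4.09 ± 0.06. In KO cells the differences were 4.42 ± 0.06 and 4.49 ± 0.06. Asns, which makes asparagine, was 383, 382 and 386 in WT control, 3012, 3141 and 3259.6 with LPS and 5215, 5323 and 5355 with IFNg (log2 differences 3.03 ± 0.08 and 3.78 ± 0.08). In KO cells Asns was 213, 217 and 226 in control, 2149.9, 2860.4 and 3021 with LPS and 5804, 5886 and 6024 with IFNg (3.59 ± 0.08 and 4.75 ± 0.08). Psat1, the aminotransferase of serine synthesis, was 176, 193 and 215 in WT control, 1027, 1105 and 1239 with LPS and 3897, 3878 and 3779 with IFNg (log2 differences 2.52 ± 0.09 and 4.31 ± 0.09). Every treated library was above every control library for these genes.

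Aldh18a1, the first enzyme of proline synthesis from glutamate, rose by 2.74 with IFNg in WT and by 3.19 in KO on the log2 scale, and Phgdh by 2.71 and 2.73 from low levels of 3 to 24 reads per control library. Slc3a2, the shared chain of several amino acid transporters, rose by 1.69 with LPS and 1.37 with IFNg in WT. Shmt2, the mitochondrial serine hydroxymethyltransferase, had small differences (0.30 with LPS and 0.52 with IFNg in WT), and with equal totals the LPS one turned to -0.46. Pck2, the mitochondrial phosphoenolpyruvate carboxykinase, was lower with LPS (-1.26 in WT and -1.07 in KO), and with IFNg it was lower in WT (-0.35) and higher in KO (0.35), the latter turning to -0.09 with equal totals.

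IL4 moved the ATF4 arm less than LPS or IFNg did, with a median log2 difference of 0.22 in WT and 0.39 in KO. In WT 6 of the 14 genes were higher and 2 lower, beside 10.6% and 9.56% of all genes. In KO 6 were higher and 3 lower, beside 12.6% and 10.5%. Mthfd2 was 767, 777 and 794 in WT IL4 libraries (log2 difference 1.48 ± 0.06) and 1063, 995 and 919 in KO (2.13 ± 0.06). Slc3a2 was 4725, 5094 and 5068 in WT control and 7111, 7009 and 7261 in WT IL4 libraries (log2 difference 0.52 ± 0.06), and Pck2 fell from 405, 437 and 484 to 224, 261 and 279.8 (-0.79 ± 0.12). Asns was 511, 539.5 and 479 with IL4 in WT and 603, 590.0 and 596 in KO, log2 differences of 0.41 ± 0.08 and 1.44 ± 0.08. Atf4 in KO was 2855, 3035 and 3025 in control and 4000.2, 4129.7 and 4036 with IL4 (log2 difference 0.45 ± 0.04), against 0.15 ± 0.04 in WT. Psat1 was higher with IL4 in WT (0.29) and lower in KO (-0.45), as was Atf3 (0.14 and -0.25).

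**Figure D4:**
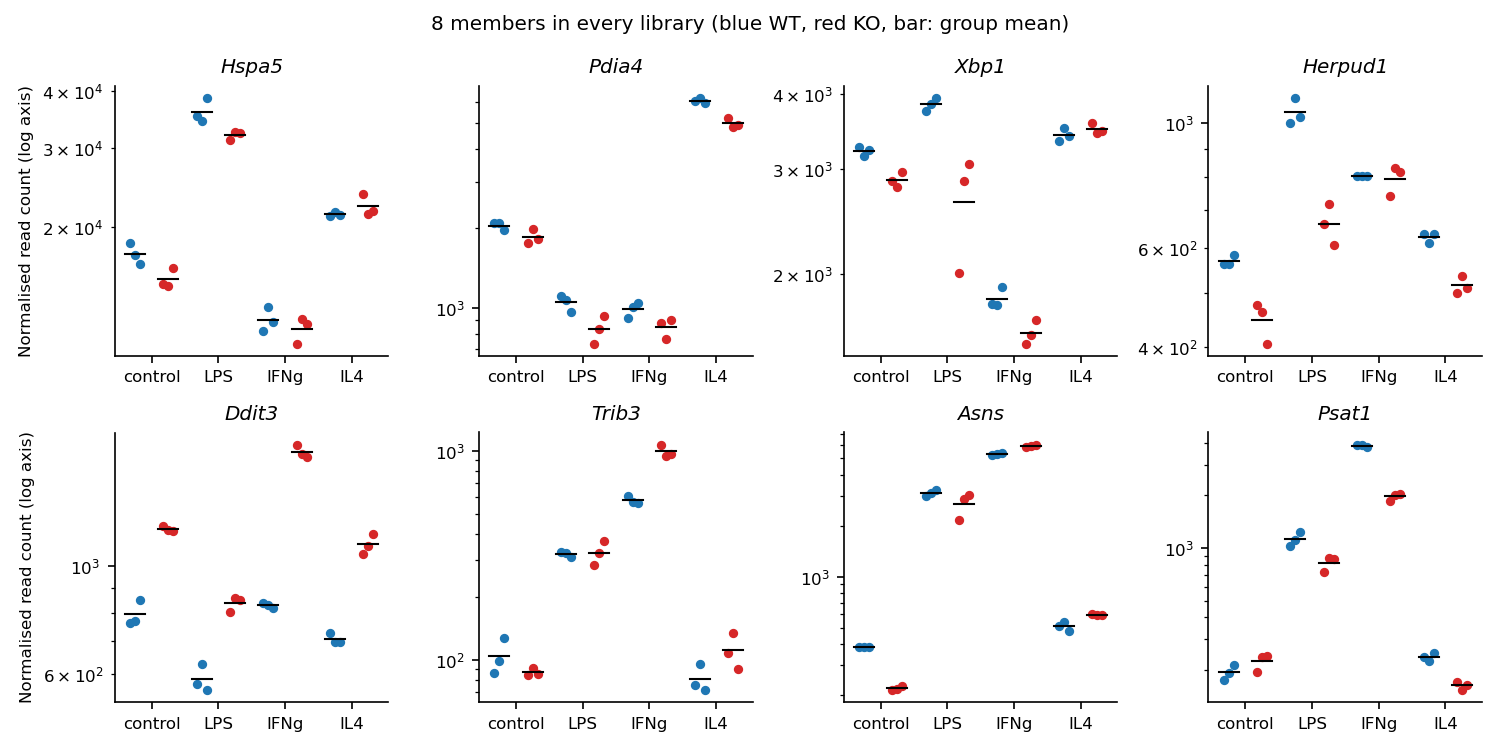
Normalised read count (log axis) of 8 members in every library, WT in blue and KO in red, with group means as bars. Ddit3 is higher in every KO than in every WT library of the same treatment, and the order of the genotypes changes between treatments for Asns and Psat1.

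KO cells were then compared with WT cells within each treatment and on average. Whether the differences came from the loss of CITED2 itself was not tested. In the ER arm limma called no gene higher in KO than in WT under any treatment. The number called lower was 2 of 20 in control, where 7.16% of all genes were called in either direction and 3.05% lower, 10 with LPS (22.2% and 12.5% of all genes), 3 with IFNg (9.05% and 4.21%) and 2 with IL4 (9.29% and 3.14%). Averaged over treatments 10 were lower and none higher, against 22.3% of all genes called and 10.7% lower. With medians set equal the numbers lower were 1 in control, 5 with LPS, 0 with IFNg, 0 with IL4 and 4 on average, and with totals set equal, which moved the median of all genes with LPS from -0.06 to -0.19, they were 6, 18, 11, 3 and 18 in the same order; none was higher under either. At an unadjusted p below 0.05, 1 gene was higher in any single treatment (Atf6 with IL4, log2 difference 0.16), and edgeR called 0 and DESeq2 1 higher. Without the 3 shallowest libraries 7 genes were lower with LPS and 7 with IFNg. The differences were small: the median log2 difference of the ER arm was -0.12 in control, -0.17 with LPS, -0.13 with IFNg and 0.03 with IL4, beside 0, -0.06, -0.03 and 0 for all genes.

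Markers of antibody-secreting cells, which have high ER chaperone levels, differed between genotypes, but not all in the same direction. The 8 plasma cell markers, all measured, summed to 7714 to 7999 in WT and 10362 to 10632 in KO control libraries, 10256 to 10606 and 8339.7 to 9674 with LPS, 4570.6 to 4743 and 6108 to 6394 with IFNg, and 8545 to 8638 and 10479 to 10977 with IL4. Most of these sums came from Sdc1, Prdm1 and Xbp1, which is itself a member. Jchain averaged 681 in KO against 83.9 in WT control and 1053 against 99.96 with LPS. With IFNg it averaged 738 against 123, and with IL4 574 against 34.2. Mzb1 averaged 15.3 against 0.97 in control, and Tnfrsf17 was 0 in all 3 WT IFNg libraries and at most 7.35 in any library. Sdc1 and Prdm1 were lower in KO with LPS (2801 against 3331 and 2609 against 3082) and higher in the other treatments. Irf4 was lower in KO with IL4 (824 against 969), near equal in control (75.6 against 73.3) and higher with LPS and IFNg. Derl3, at low values, was lower in KO in control only (5.33 against 8.55). The 6 B cell markers summed to 536 to 611 in WT and 744 to 836 in KO control libraries, mostly from Cd22, with Pax5 at most 1.23 in any library. Their sums were also higher in KO without overlap with LPS (298 to 432 in WT and 434 to 638 in KO), IFNg (318 to 321 and 420 to 474) and IL4 (746 to 841 and 898 to 967). The 6 fibroblast markers were lower in KO with IFNg (303 to 359 in WT and 246 to 296 in KO) and IL4 (494 to 507 and 352 to 490). In control and with LPS the fibroblast sums overlapped. The 8 neutrophil markers summed to 497 to 621 in WT and 269 to 323 in KO IL4 libraries, and the genotypes overlapped in the other treatments. The 6 T and NK cell markers summed to at most 30.8 in any library. Their sums were 0 to 8.23 in WT and 14.1 to 23.6 in KO with LPS, and 4.48 to 9.69 and 18.6 to 30.8 with IFNg. With IL4 they were 1.73 to 6.60 and 20.2 to 21.3, and in control the genotypes overlapped. The part of these cell types in the genotype differences was not tested.

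Herpud1 had the largest called difference of the ER arm in control cells, at 476, 462 and 406 in KO and 562, 563 and 584 in WT libraries (log2 difference -0.35 ± 0.07, adjusted p = 0.0021). With LPS it was 662, 718 and 607 against 999, 1105 and 1026 (-0.66 ± 0.07, adjusted p = 2.5e-07), and with IL4 499, 536 and 510.1 against 635, 613 and 634 (-0.28 ± 0.07), but with IFNg it was not called, at 740.4, 830.4 and 818 against 805, 803 and 806. The genotypes did not overlap in control, LPS and IL4 libraries and did overlap with IFNg.

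Manf was lower in every KO than in every WT library of the same treatment in all 4 treatments. It was 771, 799 and 907 in KO and 1092, 978 and 987 in WT control libraries (log2 difference -0.31 ± 0.07), 1229, 1139.6 and 1129 against 1378, 1429 and 1608 with LPS (-0.33 ± 0.07) and 999.6, 1115 and 1134 against 1265, 1327 and 1293 with IFNg (-0.26 ± 0.07), and with IL4 the difference was not called (-0.20, adjusted p = 0.093). Other expressed genes, Dcaf1 and Rbm15b, overlap Manf (chr9:106838312-106891979, GRCm38), as other genes do Hsp90b1, Pdia3 and Syvn1, and whether reads were assigned by strand is not given in the sources used here.

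Xbp1 was 2008, 2859 and 3059 in KO and 3746, 3855 and 3934 in WT LPS libraries, a log2 difference of -0.56 ± 0.09 (adjusted p = 5.2e-05). The lowest value came from the shallowest library, and the log2 difference was -0.38 and called without it. It was not called in a fit of the WT and KO LPS libraries alone (adjusted p = 0.16; 1.0e-08 to 0.16 over the alternatives). In the other treatments Xbp1 was not called between genotypes, with log2 differences of -0.16 in control, -0.19 with IFNg and 0.03 with IL4. Hspa5 was called lower in KO with LPS (log2 difference -0.17 ± 0.06, limma adjusted p = 0.045) and in no other single treatment. In control its log2 difference was -0.19, no smaller than with LPS, and every KO library lay below every WT library. With IFNg the genes called were Dnajc3, a BiP co-chaperone (1870.4, 2119.8 and 2018 against 2251, 2469.6 and 2479; log2 difference -0.26 ± 0.07), Manf and Pdia6 (2563, 2559 and 2752 against 2916, 3078 and 2965; -0.19 ± 0.05). With IL4 they were Herpud1 and Pdia4, at 5235, 4835 and 4924 against 6084, 6214 and 5941 (-0.28 ± 0.08). Averaged over treatments Pdia4 differed by -0.25 ± 0.04, Manf by -0.27 ± 0.04 and Herpud1 by -0.33 ± 0.04.

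**Figure D5:**
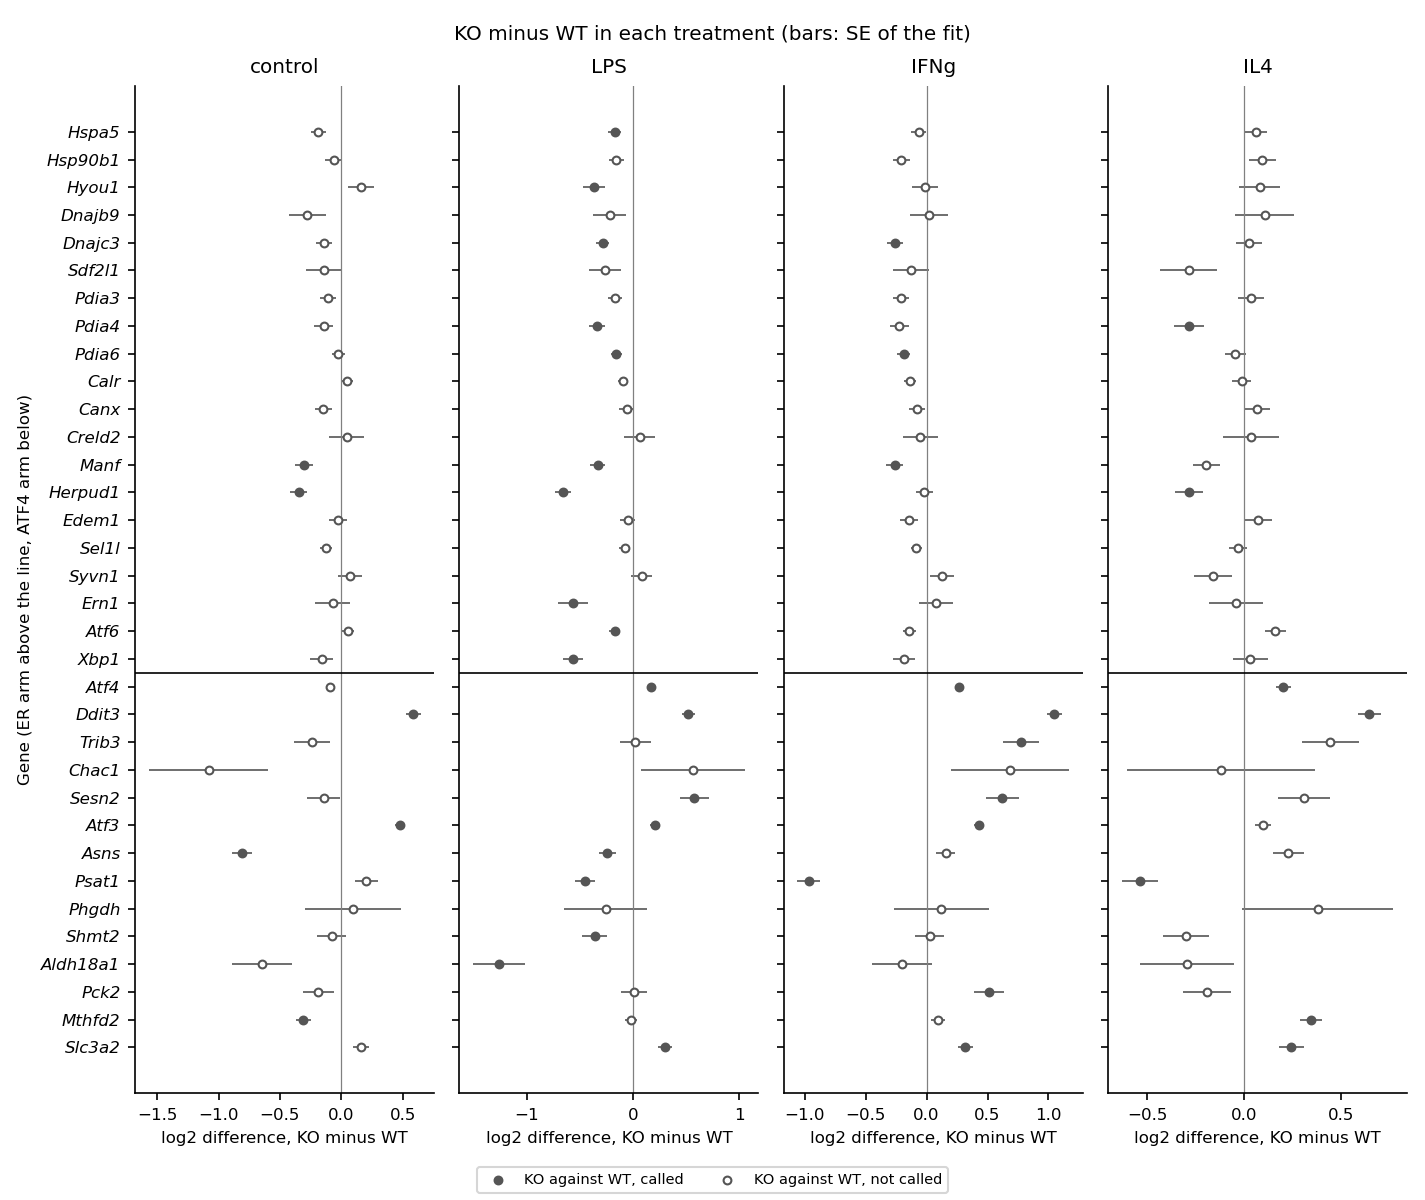
KO minus WT log2 difference for every member in each treatment, with the SE of the fit; filled points were called at an adjusted p below 0.05. In the ER arm every called point is left of 0, and in the ATF4 arm called points lie on both sides, with Ddit3 right of 0 in all 4 panels, whose horizontal scales differ.

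In the ATF4 arm the genotype differences went both ways and were larger. In control cells 2 of 14 genes were higher in KO and 2 lower, with LPS 5 higher and 4 lower, with IFNg 7 higher and 1 lower, and with IL4 4 higher and 1 lower. Setting totals equal gave 2 higher and 5 lower with LPS, 2 and 1 with IL4 and 4 and 4 on average. The share of all genes called higher was 4.11%, 9.7%, 4.83% and 6.14% in the same order. Averaged over treatments 6 were higher and 4 lower, where 11.6% of all genes were higher. The regulators accounted for most of the higher calls: on average 5 of 6 were higher and none lower, while of the 8 metabolic genes 1 was higher and 4 lower.

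Ddit3 was higher in KO in all 4 treatments. It was 1206, 1189 and 1182 in KO against 763, 771 and 850.0 in WT control libraries (log2 difference 0.59 ± 0.06), 803, 858 and 851 against 571, 629 and 555 with LPS (0.52 ± 0.06), 1777, 1699 and 1674 against 838, 832 and 818 with IFNg (1.05 ± 0.06, adjusted p = 8.1e-12) and 1056, 1101 and 1166 against 728, 696 and 697 with IL4 (0.65 ± 0.06). In each treatment the lowest KO library was above the highest WT library. The average difference was 0.70 ± 0.03 (adjusted p = 6.3e-15), and the gene was called under every alternative tried. Ddit3 (chr10:127290774-127296288, plus strand, GRCm38) overlaps Mars, the methionyl-tRNA synthetase gene on the minus strand, so reads of one could be counted for the other. Mars itself differed between genotypes by 0.08 in control, -0.45 with LPS, -0.01 with IFNg and 0.04 with IL4, and was called, as lower, with LPS.

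Atf3 also lay higher in every KO than in every WT library of each treatment. It was 13657, 13560.5 and 13418 in KO and 9959, 9606 and 9584 in WT control libraries (log2 difference 0.48 ± 0.04), 24877, 26980.3 and 27268 against 22498, 22908 and 23309 with LPS (0.20 ± 0.04, not called with totals set equal) and 9735, 10356 and 10090.4 against 7418, 7564 and 7387 with IFNg (0.43 ± 0.04), and it was not called with IL4 (0.10). Atf4 was 11004, 11234 and 11362 in KO and 9231, 9349.8 and 9332 in WT IFNg libraries (log2 difference 0.27 ± 0.04), differed by 0.17 with LPS and 0.20 with IL4, and was not called in control (-0.09). Sesn2 was higher in KO with LPS (0.58) and IFNg (0.62). Trib3 was 1066, 947 and 959.7 in KO against 609, 565 and 561 in WT IFNg libraries (0.77 ± 0.15) and was called in no other single treatment.

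Asns started lower in KO. It was 213, 217 and 226 in KO and 383, 382 and 386 in WT control libraries, a log2 difference of -0.81 ± 0.08 (adjusted p = 1.4e-07), with no overlap. With LPS it was 2149.9, 2860.4 and 3021 against 3012, 3141 and 3259.6 (-0.24 ± 0.08), and with IFNg and IL4 it was not called (0.16 and 0.23). Psat1 had the opposite course: it was not called in control (196, 236 and 241 in KO against 176, 193 and 215 in WT) and was lower in KO with LPS, at 732, 877 and 864 against 1027, 1105 and 1239 (-0.45 ± 0.09), with IFNg, at 1853, 2019 and 2048 against 3897, 3878 and 3779 (-0.97 ± 0.09), and with IL4, at 172, 154 and 165 against 238, 225 and 251 (-0.54 ± 0.09). Mthfd2 was lower in KO control (-0.31) and higher with IL4, at 1063, 995 and 919 against 767, 777 and 794 (0.35 ± 0.06).

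Slc3a2 was higher in every KO than in every WT library of each treatment and was called with LPS (0.30), IFNg (0.32) and IL4 (0.24). Aldh18a1 was lower in every KO library in all 4 treatments and was called with LPS, at 70.9, 219.6 and 209 in KO against 395, 368 and 312 in WT (log2 difference -1.26 ± 0.24). The value of KO LPS replicate 1 rested on 3 reads, and without that library the log2 difference was -0.73 and called. It was not called in a fit of the WT and KO LPS libraries alone (adjusted p = 0.26; 1.5e-06 to 0.26 over the alternatives). Ranges of the genotypes did not overlap for 9 ER arm and 7 ATF4 arm genes in control, where they did not overlap for 23.4% of all genes, for 9 and 9 with LPS (24.3%), 9 and 12 with IFNg (27.9%) and 7 and 10 with IL4 (32.3%).

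Interaction terms asked whether a treatment changed a member differently in KO and WT cells. With LPS 1 ER arm and 6 ATF4 arm genes were called by limma (8.79% of all genes), with IFNg 0 and 8 (2.5%), and with IL4 0 and 5 (3.61%). Of the ATF4 arm calls 4 were positive and 2 negative with LPS (4.29% and 4.5% of all genes), 7 and 1 with IFNg (1.32% and 1.18%), and 3 and 2 with IL4 (2.45% and 1.15%). All 3 interactions share the same WT and KO control libraries, so their values are not independent. Psat1 and Asns were called in all 3, at values for Psat1 of -0.65 ± 0.13 with LPS, -1.17 ± 0.13 with IFNg and -0.74 ± 0.13 with IL4, and for Asns of 0.56 ± 0.11, 0.96 ± 0.11 and 1.03 ± 0.11. Sesn2 was at 0.72 ± 0.19 with LPS and 0.76 ± 0.19 with IFNg, and with IFNg Trib3 was at 1.01 ± 0.21 and Pck2 at 0.70 ± 0.18. In the ER arm the called gene was Hyou1, an Hsp110-type chaperone, whose LPS term was -0.53 ± 0.15 (adjusted p = 0.027), and which was not called without the 3 shallowest libraries. With totals set equal 6 ER arm genes were called with LPS. For the ER arm with IFNg and IL4 limma and edgeR called 0 genes, DESeq2 called 2 and 1, and 4 and 2 had an unadjusted p below 0.05, which does not show that the genotypes responded alike.

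Of 40 further ER genes 38 were measured. At the deposited scale, with IL4 15 were higher and 0 lower in WT (10.6% and 9.56% of all genes) and 14 and 0 in KO (12.6% and 10.5%). With LPS 13 were higher and 12 lower in WT (25.5% and 27.8% of all genes), and with IFNg 12 and 13 (22.5% and 22.6%). Between genotypes 0 were higher and 12 lower in KO with LPS (9.7% and 12.5% of all genes). P4hb, the main disulfide isomerase, averaged 10582 in WT control and 13729 with IL4. Edem2 and Wfs1 (wolframin, an ER membrane protein) were higher in KO control cells, by 0.51 and 0.69 on the log2 scale, and Creb3l2, an ER-anchored transcription factor, was lower on average (-0.48).

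Of 42 further ATF4 genes 41 were measured. In WT cells 27 were higher and 6 lower with LPS (25.5% and 27.8% of all genes), 30 and 4 with IFNg (22.5% and 22.6%), and 16 and 3 with IL4 (10.6% and 9.56%). All 12 tRNA synthetases, which charge tRNAs with amino acids, were higher with IFNg in both genotypes, with log2 differences of 0.65 to 4.26 in WT. The extreme was Wars, the tryptophanyl-tRNA synthetase and a known interferon target, at 1009 ± 62.2 in WT control and 19284 ± 759.7 in WT IFNg libraries. Nupr1, a small stress-induced nuclear protein, went from 66.3 ± 1.28 to 3089 ± 109.9 with LPS in WT. Slc7a1, a cationic amino acid transporter, rose by 3.79 with IFNg in WT and 4.20 in KO on the log2 scale, and Slc38a2, a neutral amino acid transporter, fell with IL4 in WT (-0.68). Eif2ak2 (PKR, the eIF2 kinase that senses double-stranded RNA) rose by 4.35 with LPS in WT. With IL4 Eif2ak2 and Nupr1 were higher in KO than in WT, by 0.82 and 0.70.

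Between genotypes 6 of the 41 were higher and 15 lower in KO with LPS (9.7% and 12.5% of all genes), 9 higher and 1 lower with IFNg (4.83% and 4.21%), and 9 higher and 0 lower with IL4 (6.14% and 3.14%). With LPS 8 of the 12 tRNA synthetases were lower in KO and Wars was higher (0.87). Slc7a11, the cystine transporter chain that pairs with Slc3a2, was higher in KO in all 4 treatments: 110.3 ± 7.90 against 59.3 ± 3.02 in control, 6273 ± 719.8 against 3590.1 ± 126 with LPS, 639 ± 74.4 against 249 ± 24.2 with IFNg and 476 ± 22.5 against 266 ± 19.7 with IL4. The average log2 difference was 0.97 ± 0.05. Ppp1r15a (GADD34), which returns eIF2 to its unphosphorylated form, was 3362 ± 398 in KO and 1930.2 ± 221 in WT LPS libraries (log2 difference 0.80 ± 0.08).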

How the data were processed

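Total RNA of 24 libraries, 3 in each of 8 groups, was sequenced. The submitters' processing notes name TopHat2 2.2.1, Cufflinks 2.2.1, Cuffdiff and the mouse build mm10. The counter and its strand setting are not given in the sources used here. The deposited table holds a normalised signal, which is read counts divided by 1 factor per library. In every library 100% of values gave whole reads within 0.05 reads, and the factors matched median-of-ratios factors. The sums of these deposited values differ between treatments, so differences depend on this scaling.

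Values were analysed as log2(value + 1) with limma 3.58.1 (trended variance) in R 4.3.3, with 1 mean per group over all 24 libraries (16 residual degrees of freedom). Genes were tested where 3 or more libraries had a value of 1 or more (18637 genes), in 14 comparisons. Benjamini-Hochberg adjustment ran over all genes tested, and a gene was called at an adjusted p below 0.05. All fold changes are on this log2 scale, which understates low genes, and their errors are standard errors. The fit was tried on simulated data for KO against WT with LPS. It recovered 30 of 67 genes changed 1.5-fold, 57 of 67 changed 2-fold and 66 of 66 changed 4-fold, with 18 false calls. The simulated spread was assumed rather than taken from these libraries, and only genes above a minimum mean were changed. The recovered shares therefore need not hold for the real fit, in which small differences may still be missed. The labels give matching replicate numbers but no statement that they pair libraries, so no block was used. The members and the gene lists were chosen with earlier results of these data known. All 34 members could be named; library values were printed for Hspa5, Xbp1, Ddit3 and Asns and, per comparison and arm, for the 3 called members with the smallest adjusted p whose groups did not overlap (for the average and the interactions, among all called), and further pathway genes were named as the 3 called with the smallest adjusted p. Values of some other members were added where they helped to describe an arm. Alternatives were other pseudocounts (0.5 and 8), no filter, a minimum mean of 10, median centring, TMM scaling, edgeR 4.0.16 and DESeq2 1.42.0 on the whole reads, library weights, a fit of the libraries compared alone, a replicate block, and leaving out each library. Tests were two-sided. Leaving out the 3 shallowest libraries and setting library totals equal were chosen after seeing the data.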

Additional observations from a re-analysis of the deposited data

Results flagged for a closer look

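Members whose treatment response differed between KO and WT by the interaction term of the fit (limma, adjusted p below 0.05) are given here as the KO response minus the WT response on the log2 scale. All terms share the control libraries. With LPS the terms were -0.53 for Hyou1, 0.26 for Atf4, 0.72 for Sesn2, -0.28 for Atf3, 0.56 for Asns, -0.65 for Psat1 and 0.29 for Mthfd2. With IFNg they were 0.36 for Atf4, 0.46 for Ddit3, 1.01 for Trib3, 0.76 for Sesn2, 0.96 for Asns, -1.17 for Psat1, 0.70 for Pck2 and 0.40 for Mthfd2. With IL4 they were 0.29 for Atf4, -0.38 for Atf3, 1.03 for Asns, -0.74 for Psat1 and 0.66 for Mthfd2. Atf4, Asns, Psat1 and Mthfd2 were called in each of the 3 interactions, and Psat1 was negative where the others were positive.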

How the results depend on the processing

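Counts of members called, of 34, were within 1.5 times those reported under most alternatives. In control cells, 6 members were called between genotypes, 19 with library weights and 11 with equal totals. With LPS 19 were called between genotypes, 12 after median centring and 3 in a fit of the libraries compared alone. With IFNg 11 were called, 18 by DESeq2, 19 with library weights and 19 with equal totals, and 7 to 14 when 1 library was left out (7 without KO IFNg replicate 1). With IL4 7 were called, 11 by edgeR, 13 by DESeq2, 16 with library weights and 12 without the 3 shallowest libraries. The average went from 20 to 12 after median centring. The LPS interaction went from 7 to 4 after median centring, 11 with library weights and 3 in the fit of the libraries compared alone, the IFNg interaction from 8 to 14 and the IL4 interaction from 5 to 11 with library weights. The cause of these shifts was not tested.
A replicate block gave 29, 27 and 20 members for LPS, IFNg and IL4 in WT, 29, 29 and 25 in KO, 6, 18, 11 and 7 between genotypes in control, LPS, IFNg and IL4, 20 on average and 8, 8 and 5 in the interactions. Over 84 pairs of libraries with the same number the median correlation of deviations was -0.00738, with 6 above 0.1, and 3 of 24 libraries were closest to their own number, so the numbers were not taken as pairs.
Of the members chosen by smallest adjusted p in a comparison, none changed direction there under any alternative. Over all members, 25 called differences changed sign with equal medians or equal totals, each of LPS or IFNg against control and none with IL4 or between genotypes. Among the members chosen by smallest adjusted p, some calls were lost under at least 1 alternative. Against control these were Hspa5 with IFNg in WT and Herpud1 with LPS in WT. Between genotypes they were Manf in control, Xbp1, Manf, Aldh18a1 and Atf3 with LPS, Dnajc3, Manf and Pdia6 with IFNg, and Herpud1 and Pdia4 with IL4. The LPS interactions of Hyou1, Asns and Atf4 were also lost. Members outside that choice lost calls too. Examples are Pdia3 with IFNg in WT after median centring (limma adjusted p = 0.43) and Syvn1 with LPS in KO with equal totals (limma adjusted p = 0.55). Depth limits Chac1, Phgdh, Aldh18a1 and Pck2, each with fewer than 10 reads in some library.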
